A study of Pisaster ochraceus with 50 samples.

Results

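Pyloric caecum and dermis of the ochre sea star Pisaster ochraceus were compared within asymptomatic animals. The comparison used every asymptomatic animal of McClures Beach or Lifeboat House that had given a library of each tissue, which was 14 animals and 28 of the 50 libraries of the series. The study sequenced RNA from dermis, pyloric caecum and tube feet of 17 wild animals, with and without signs of sea star wasting disease, and tube feet of an animal of Friday Harbor. Samples were biopsied in the field and kept in RNAlater. Of the 14 animals, 13 came from McClures Beach and 1 from Lifeboat House. By size class, 3 were small, 3 medium, 5 large and 3 x-large. By colour, 8 were brown, 5 orange and 1 purple, and 2 of the 14 were labelled feeding. No treatment is labelled. A tissue sample is a mixture of cell types, and a change in RNA per cell cannot be told apart from a change in the number of cells of a type.

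The pyloric caeca are the digestive glands of a sea star, a pair in each arm. They secrete digestive enzymes into the stomach, absorb the products and store nutrients that the animal draws on between meals and for its gonads. The dermis is the connective tissue of the body wall. It lies under the epidermis and holds collagen whose stiffness the animal can change, the ossicles of the skeleton, and nerve and muscle fibres. The deposited files give gene IDs and do not pair them with names, so no gene below has a known function here, at most 2 IDs are named in each direction of a comparison, and the tissue labels could not be checked against known marker genes. They were checked against each other instead. For each of the 28 libraries, the most similar other library by rank correlation over the genes tested carried the same tissue label.

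Gene reads, the reads that met an annotated gene, were fewer in dermis (471371 ± 76782, SD, n = 14; 373930 to 611964) than in pyloric caecum (852502 ± 110648; 721096 to 1003306). The ranges did not overlap, so depth, here the number of gene reads, and tissue cannot be told apart. Detection was therefore compared after all libraries had been thinned at random to 373930 reads. The share of counted reads in no gene was lower in pyloric caecum in 14 of 14 animals (two-sided exact permutation test over animals, adjusted p = 0.000244). Whether the gap in gene reads came from this share or from the amount of sequencing was not tested. One read stood for 1.63 to 2.67 CPM (a gene's count relative to its library's total of gene reads) in dermis and for 0.997 to 1.39 CPM in pyloric caecum. A batch, of what step the labels do not say, was labelled 1 to 5, and the libraries of an animal shared a batch in 7 animals and differed in it in the other 7.

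The RNA of the pyloric caecum was dominated by 1 gene. At equal depth the most abundant gene took 21.9% ± 7.28 of the gene reads in pyloric caecum (SD, n = 14; 10.2% to 37.2%) against 5.77% ± 2.89 in dermis (2.62% to 13.8%), and it took more in the pyloric caecum of 14 of 14 animals (two-sided exact permutation test over animals, p = 0.000122, the smallest that 14 animals allow; adjusted p = 0.000244 over 8 library measures). The 10 most abundant genes together took 40.3% ± 6.89 against 20.6% ± 8.76, higher in 13 of 14 animals (exact permutation, adjusted p = 0.000391). For the 100 most abundant genes the shares were 67.0% ± 5.85 and 56.3% ± 10.02, higher in 10 of 14 animals (exact permutation, adjusted p = 0.00977).

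The effective number of genes, the number of equally abundant genes that would give the same Shannon entropy, was 277 ± 142 in pyloric caecum and 837 ± 378 in dermis (SD, n = 14; exact permutation, adjusted p = 0.000651), and it was lower in pyloric caecum in 13 of 14 animals. Once g13155, the gene with the most reads, had been left out, none of these 4 measures of concentration passed 0.05. The effective number was then 635 against 837 (exact permutation, adjusted p = 0.240, n = 14) and the share of the 10 most abundant genes 24.9% against 20.7% (exact permutation, adjusted p = 0.240, n = 14). This removal acts almost only on pyloric caecum, where g13155 had a median of 226603 CPM against 2060 CPM in dermis. The leading genes of dermis were kept. It therefore cannot show that the rest of the RNA was equally concentrated in both tissues. Among the 7 animals whose libraries shared a batch, the single most abundant gene kept a higher share, 19.7% against 6.20% (exact permutation, adjusted p = 0.0313). The other 3 measures did not stay under 0.05 there, where the smallest p that 7 animals allow is 0.0156 before adjustment (exact permutation). The share of the 10 most abundant genes was 37.4% against 22.7%, higher in 6 of 7 animals (exact permutation, adjusted p = 0.05). That of the 100 most abundant was 63.7% against 58.6%, higher in 4 of 7 animals (exact permutation, adjusted p = 0.321). The effective number was 342 against 761, lower in 6 of 7 animals (exact permutation, adjusted p = 0.0833).

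**Figure D1:**
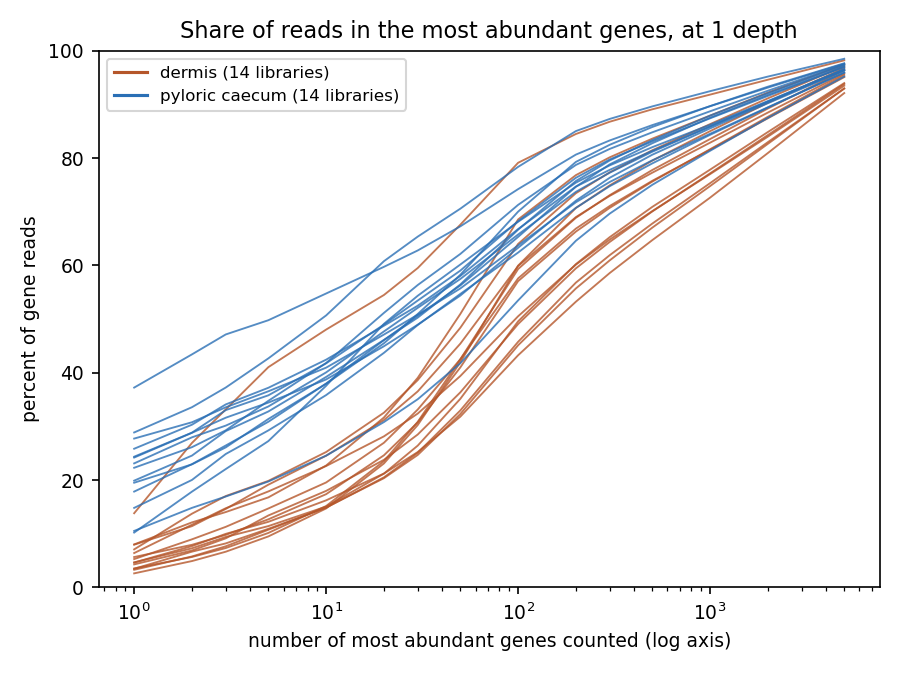
Percent of gene reads held by the most abundant genes (vertical axis) against the number of genes counted (horizontal, log axis), 1 line per library thinned to 373930 reads, dermis in brown and pyloric caecum in blue. The blue lines start at 10.2% to 37.2% for a single gene, the brown ones at 2.62% to 13.8%, and the groups run into each other towards 100 genes.

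The number of genes with a read did not differ beyond the spread between animals. At equal depth the number was 11002 ± 757 in pyloric caecum and 11875 ± 1218 in dermis (SD, n = 14), higher in dermis in 10 of 14 animals (exact permutation, adjusted p = 0.0638). With single animals left out, the adjusted p ran from 0.0259 to 0.127 (exact permutation). At each library's own number of gene reads, which was larger in pyloric caecum, the order turned. It was then 12888 genes in pyloric caecum and 12350 in dermis (exact permutation, adjusted p = 0.258, n = 14).

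The tissues differed in a large part of the measured genes. In edgeR's quasi-likelihood test with animal as a block, 5069 of 14487 genes tested (35%) passed a false discovery rate (FDR, by Benjamini-Hochberg) of 0.01. Of these, 2538 were higher in pyloric caecum (17.5% of those tested) and 2531 were lower (17.5%). This even split depends on the scaling of the libraries. With gene reads alone and no scaling factor, 1376 were higher and 3751 lower, and the median log2 fold change over all genes moved from 0.04 to -0.52. The differences below are therefore relative to the bulk of genes, which the TMM factors align. The median factor was 1.06 in dermis and 0.749 in pyloric caecum.

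Most of the called differences were large. Fitted folds were over 2 for 2351 of the higher and 2245 of the lower genes, over 4 for 1341 and 1509, and over 16 for 592 and 709. The median log2 fold change was 2.10 among the higher genes and -2.57 among the lower ones. In size, without sign, the median was 2.29 among called genes and 0.82 over all genes tested, where called genes are by construction the larger differences. With a minimum fold of 2 built into the test, 2859 genes passed, 1357 higher and 1502 lower.

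Called genes held unequal shares of the reads of the tissues. Genes called higher held 66.1% ± 5.30 of the gene reads in pyloric caecum (SD, n = 14) and 6.60% ± 1.84 in dermis. Genes called lower held 45.4% ± 2.56 in dermis and 7.78% ± 1.66 in pyloric caecum. The genes tested but not called held 47.8% ± 2.73 of the dermis reads and 26.0% ± 3.87 of the pyloric caecum reads. These shares describe genes that were chosen on the same libraries. Among the 100 genes with the highest mean CPM in each tissue, 59 were shared, which is 59% of either list. Of the 100 of pyloric caecum, 42 were called higher there, 18 lower and 40 neither. Of the 100 of dermis, 50 were called lower in pyloric caecum, 2 higher and 48 neither. Of all genes tested, 17.5% were called higher in pyloric caecum and 17.5% lower. Abundant genes were called more often, as the next paragraph gives. Ranking genes by their level in a tissue also favours those called higher in it.

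How often a gene was called followed its abundance. Of 2727 genes with a mean of 1 to 3 CPM over the 28 libraries, 18.2% were called. The share was 25.9% of 4941 genes at 3 to 10 CPM, 40.7% of 4144 at 10 to 30 CPM, 56.0% of 1871 at 30 to 100 CPM and 69.7% of 804 at 100 CPM or more. The median size of the log2 fold change did not rise in step: it was 0.93, 0.75, 0.72, 0.87 and 1.48 in these bands. How depth and abundance set the share called was not tested.

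**Figure D2:**
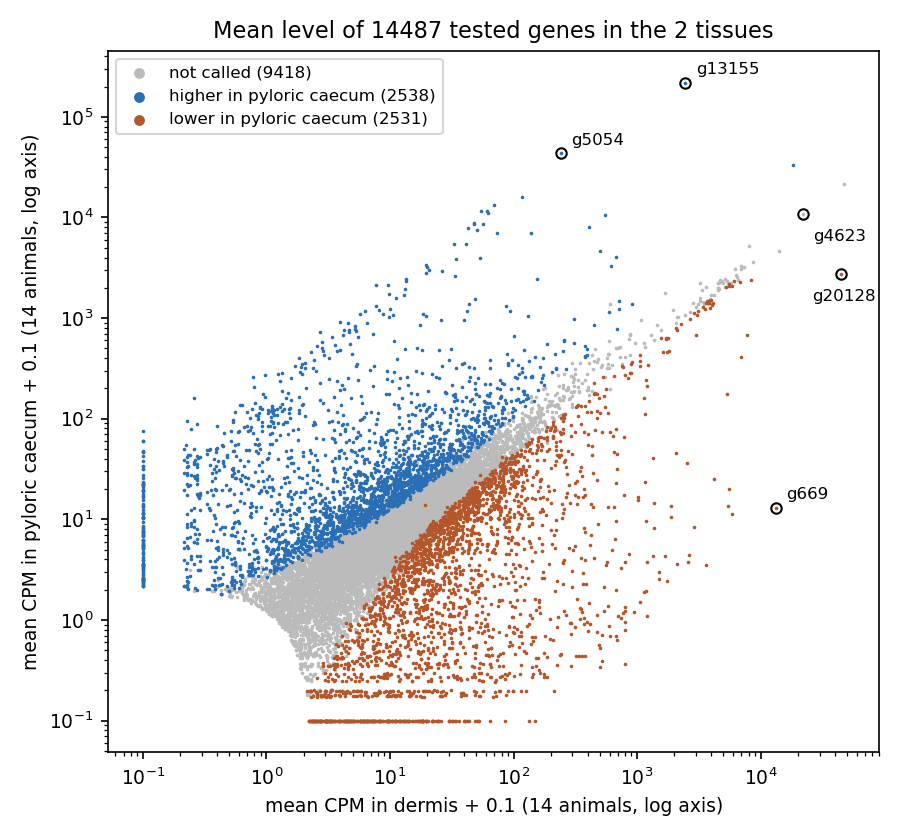
Mean CPM + 0.1 of the 14487 tested genes in dermis (horizontal, log axis) and pyloric caecum (vertical, log axis) over 14 animals, with the 2538 genes called higher in pyloric caecum in blue, the 2531 called lower in brown and the others in grey. Circles mark the 5 genes named in the text. The called genes lie on both sides of a grey band, and genes unread in a tissue stand at 0.1 on its axis.

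The gene g13155 had the highest level of all in pyloric caecum. Its lowest, median and highest values over the 14 pyloric caecum libraries were 102237, 226603 and 372051 CPM, against 1077, 2060 and 6058 CPM in dermis. Every pyloric caecum library lay above every dermis library, and the smallest difference within an animal was 5.57 on the log2(CPM + 1) scale. The fitted log2 fold change was 7.12 ± 0.38 (SE, n = 14 animals; edgeR adjusted p = 4.7e-20). Next in pyloric caecum came g5054, with 27961, 43512 and 76279 CPM as lowest, median and highest value, against 109, 213 and 611 CPM in dermis. It too separated the tissues in all 28 libraries, with a log2 fold change of 8.17 ± 0.36 (edgeR adjusted p = 1.3e-22).

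In the other direction g20128 led the genes called lower in pyloric caecum. Its lowest, median and highest dermis values were 7239, 40654 and 131023 CPM, against 653, 2293 and 5906 CPM in pyloric caecum. The groups did not overlap, but the difference within an animal (pyloric caecum less dermis) ran from -6.34 to -0.744 on the log2(CPM + 1) scale. The log2 fold change was -3.43 ± 0.43 (SE; edgeR adjusted p = 7.2e-09). The next gene, g669, spanned a far wider range in dermis, from 26.4 through a median of 12716 to 46484 CPM, while pyloric caecum held 2.77, 10.2 and 28.8 CPM. The lowest dermis library, of the small animal M0D055221I, lay within the pyloric caecum range. Within each of the 14 animals dermis was higher, which the rule that named the gene required. The log2 fold change of g669 was -8.87 ± 0.69 (edgeR adjusted p = 7.9e-15). It was -10.04 in the 7 same-batch animals and -6.81 in the 7 different-batch animals, called in both.

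The gene g4623 stood for abundant genes whose tissue difference did not pass. It held 9379, 16659 and 62626 CPM in dermis and 3823, 8500 and 29086 CPM in pyloric caecum, groups that overlap widely. The log2 fold change was -0.39 ± 0.34 (SE, n = 14 animals; edgeR adjusted p = 0.374). Its CPM was higher in dermis in 13 of 14 animals, yet after TMM scaling pyloric caecum was higher in 5 of 14. With no scaling factor it was called lower (log2 fold change -0.98, edgeR adjusted p = 1.0e-04).

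**Figure D3:**
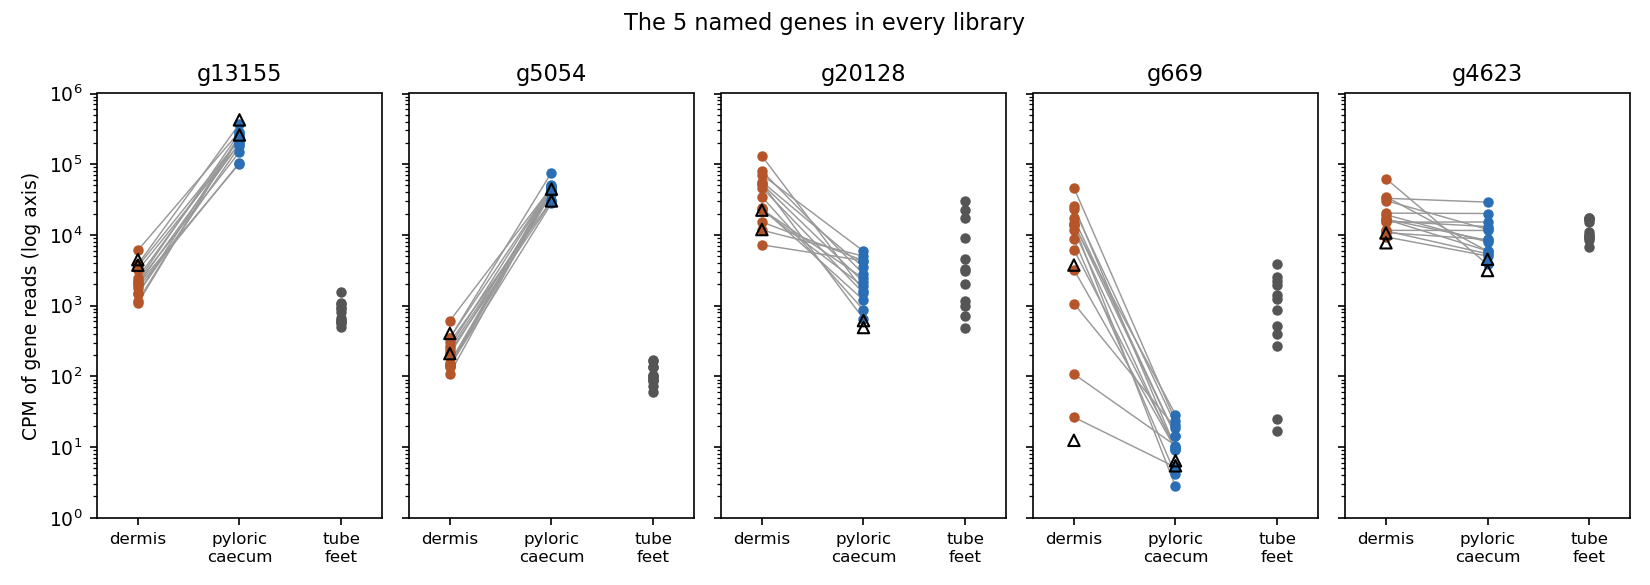
CPM of gene reads (log axis) of the 5 named genes in each library, with the dermis (brown) and pyloric caecum (blue) libraries of an animal joined by a line and the tube feet of the same animals in grey. Open triangles mark the 2 symptomatic animals. The lines rise in 14 of 14 animals for g13155 and g5054 and fall in 14 of 14 for g20128 and g669.

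Tissue outweighed the animal in these libraries. The Spearman correlation over the genes tested had a median of 0.738 among pairs of dermis libraries (91 pairs, 0.657 to 0.856) and of 0.782 among pairs of pyloric caecum libraries (91 pairs, 0.694 to 0.851). Between the tissues it was 0.469 within an animal (14 pairs, 0.378 to 0.553) and 0.451 between different animals (182 pairs, 0.354 to 0.518). These libraries share an annotation and, within a tissue, a similar depth. Each animal repeated the same tissue difference: the log2 differences of an animal correlated with the mean of the other 13 at 0.756 to 0.825 across genes (median 0.789). Within single animals, 88.6% to 92.8% of the 5069 called genes lay in the called direction after TMM scaling, a share that those animals helped to set.

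Agreement in all 14 animals was narrower. After TMM scaling, 1080 genes (7.45% of those tested) were higher in pyloric caecum in every animal and 1016 (7.01%) were lower in every animal. Among the called genes these were 1078 of the 2538 higher and 1007 of the 2531 lower. In 1198 genes (8.27%) the 28 scaled values did not overlap between the tissues, 633 with pyloric caecum higher (4.37%) and 565 with it lower (3.9%). On plain CPM these counts lean to dermis. Pyloric caecum was higher in 14 of 14 animals for 4.8% of genes tested, including 695 of the 2538 called higher, and dermis for 9.37%, including 1235 of the 2531 called lower. Plain values did not overlap for 1145 genes (7.9%), 475 with pyloric caecum higher (3.28%) and 670 with dermis higher (4.62%).

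Among the 21777 gene IDs, 98 were read in every library of 1 tissue and in none of the other. All 98 were called, which choosing them on the same libraries largely fixes in advance. A read in each of the 14 pyloric caecum libraries and none in the 14 dermis libraries was found for 51 genes, whose mean pyloric caecum level was 3.44 to 76.0 CPM with a median of 18.9. The reverse held for 47 genes, with 5.58 to 148 CPM in dermis and a median of 19.5. At equal depth the counts were 41 and 78, so which tissue had more such genes depended on depth. In contrast, 4589 genes had a read in all 28 libraries, or 3260 at equal depth.

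Libraries outside the comparison were used to look at these genes again. The 2 symptomatic animals, the large brown M0D055233U of McClures Beach and the medium orange M0D055236X of Lifeboat House, each gave a library of both tissues. Of the 2538 genes called higher, 74.8% were higher in the pyloric caecum of both symptomatic animals, against 32.1% of all genes tested. Of the 2531 called lower, 69.5% were lower in both, against 30.1% of all genes. The opposite direction in both symptomatic animals was seen for 98 of the genes called higher and 59 of those called lower. These directions are of TMM-scaled CPM.

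**Figure D4:**
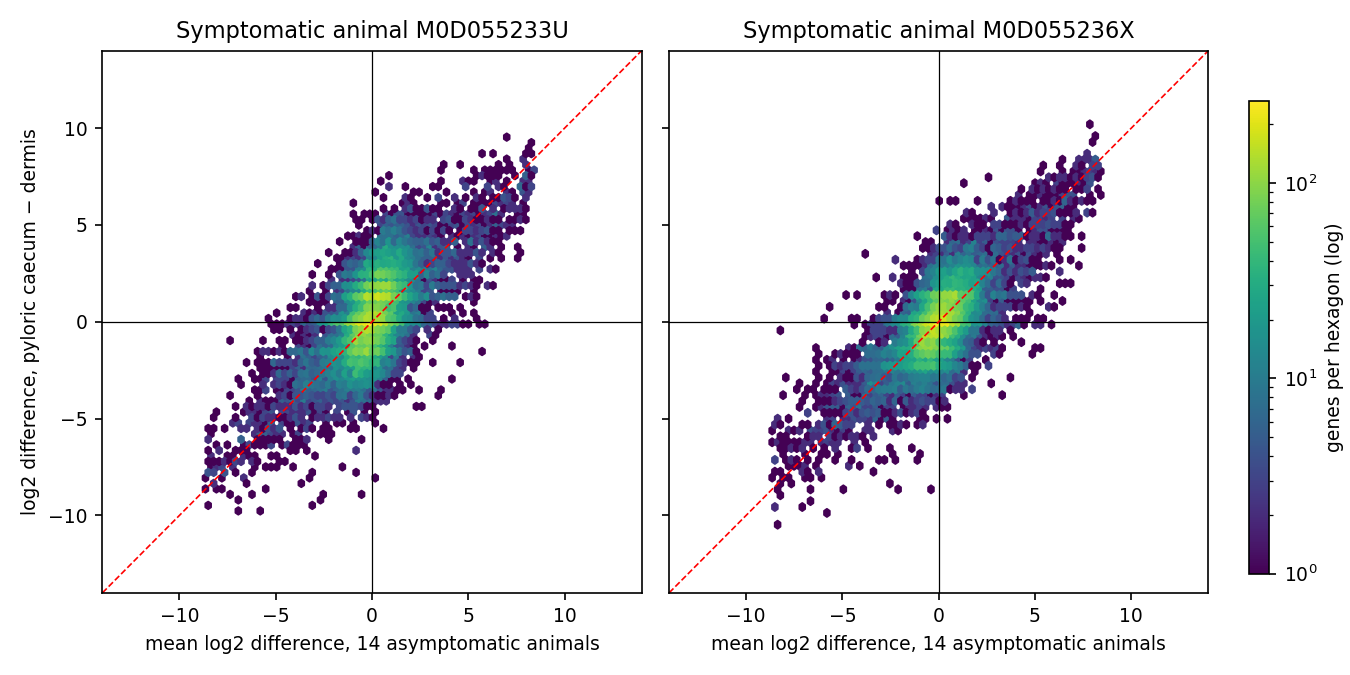
Log2 difference between pyloric caecum and dermis in each symptomatic animal (vertical) against the mean of the 14 asymptomatic animals (horizontal), both on log2(TMM-scaled CPM + 1), over 14487 genes, with colour for the number of genes per hexagon and a dashed line of equality. The genes rise from lower left to upper right, with correlations of 0.692 in M0D055233U and 0.747 in M0D055236X. A correlation does not measure closeness to the line.

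Of the 51 genes read in all 14 pyloric caecum libraries and in no dermis library, 30 were likewise read in both symptomatic pyloric caecum libraries and in neither symptomatic dermis library, a pattern that 3.94% of all gene IDs showed. For the 47 genes of the reverse kind, 34 kept the pattern, against 2.87% of all gene IDs. The genes named for a called tissue difference lay on the same sides, but g669 barely did so in M0D055236X. In symptomatic pyloric caecum g13155 held 258950 and 423280 CPM against 3734 and 4471 CPM in symptomatic dermis. For g5054 the values were 44470 and 30234 against 405 and 210 CPM, and for g20128 615 and 490 against 11915 and 22405 CPM. For g669 they were 6.41 and 5.43 against 3745 and 12.5 CPM, which in M0D055236X is 6 reads against 7.

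Tube feet, the hydraulic appendages of the same body wall, were available for 12 of the 14 animals. In these the median scaled level of the genes called higher was 29.3 CPM in pyloric caecum, 5.07 in dermis and 7.19 in tube feet. For the genes called lower it was 3.54 CPM in pyloric caecum, 25.9 in dermis and 16.9 in tube feet, where the medians over all genes tested were 8.89, 8.50 and 9.28 CPM. Of the 51 genes unread in dermis, 16 had no read in the 12 tube feet libraries and none was read in all 12. Of the 47 unread in pyloric caecum, 2 had no read in tube feet and 25 were read in all 12. Among the named genes, g13155 had a median of 744 and a highest value of 1581 CPM in tube feet, below the dermis median, while g669 ranged from 17.1 through 1054 to 3851 CPM.

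The spread between animals was also compared. Over 4386 genes with at least 10 CPM in both tissues, at equal depth, the common biological coefficient of variation between animals was 0.471 in pyloric caecum and 0.425 in dermis (n = 14 animals each). It was wider in pyloric caecum for 2535 genes and in dermis for 1851. When each animal was left out in turn, the values stayed between 0.456 and 0.477 in pyloric caecum and between 0.416 and 0.434 in dermis, and they were 0.464 and 0.420 in the 7 same-batch animals. No test was made of this difference.

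The next comparisons asked whether the tissue difference itself depended on the animal's size, feeding or colour, as an interaction in the paired fit. By size, 19 of 14487 genes (0.131%) differed between the 6 small or medium and the 8 large or x-large animals. The log2 ratio of pyloric caecum to dermis was higher in the larger animals for 8 of them and lower for 11. Of the 19, 14 were also called between the tissues, as were 35% of all genes tested. The number was 12 to 30 with single animals left out, 6 without the animal block and 8 with batch as a covariate.

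Of these, g12386 had the smallest p among those whose ratio was higher in larger animals. In the larger animals pyloric caecum held 12.1, 235 and 847 CPM (lowest, median and highest, n = 8) against 0, 4.26 and 11.2 CPM in dermis. In the smaller ones pyloric caecum held 2.21, 5.94 and 21.9 CPM (n = 6) against 5.28, 16.5 and 24.6 CPM in dermis. Pyloric caecum was above dermis in 8 of 8 larger animals. In the smaller animals the difference (pyloric caecum less dermis) had a median of -1.05 on the log2(CPM + 1) scale and ran from -2.70 to 0.718. The log2 ratio was higher in larger animals by 6.52 ± 0.69 (SE; edgeR adjusted p = 5.8e-10). The gene g12619 moved the other way. Its pyloric caecum level was 0, 1.35 and 4.37 CPM in the larger and 11.3, 26.3 and 103 CPM in the smaller animals, with no overlap, while dermis held 150 to 900 CPM and 16.05 to 649 CPM. The interaction was -4.97 ± 0.63 (edgeR adjusted p = 2.6e-07), and both calls were kept in each of the 20 alternatives run for them. Outside the fit, the asymptomatic x-large animal M0D055230R, which has no dermis library, held 120.5 CPM of g12386 and none of g12619 in pyloric caecum. The symptomatic medium animal held 2.71 CPM of g12386 and, unlike the smaller asymptomatic animals, no read of g12619.

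By colour, 5 of 14437 genes (0.0346%) passed between the 5 orange and 8 brown animals, all with a higher log2 ratio of pyloric caecum to dermis in orange animals. The gene with the smallest p was g4140. In pyloric caecum it held 60.5, 533 and 671 CPM in orange animals (n = 5) and 10.9, 17.6 and 66.9 CPM in brown ones (n = 8), which overlap at 1 library of each colour, while dermis held 68.3 to 256 and 64.4 to 267 CPM. The interaction was 4.23 ± 0.54 (log2, SE; edgeR adjusted p = 1.4e-06). The 3 highest pyloric caecum values, 533 to 671 CPM, belonged to the 3 small animals. The medium and x-large orange animals held 149 and 60.5 CPM, and the large purple one 190 CPM. Outside the fit, the asymptomatic orange x-large animal M0D055230R held 39.2 CPM, within the brown range. The symptomatic animals held 212 CPM in the medium orange and 3.21 CPM in the large brown one. The test by size did not pass for g4140 (-2.34 ± 0.74, edgeR adjusted p = 0.292). Colour and size cannot be fully told apart here, since the 3 small animals were all orange and 4 of the 6 small or medium animals were.

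The gene g669, named above, was also among the 5, through its dermis level. Orange dermis held 26.4, 1071 and 13809 CPM and brown dermis 6175, 14175 and 25841 CPM, with 5.18 to 28.8 and 2.77 to 20.7 CPM in pyloric caecum. The interaction was 5.05 ± 0.80 (edgeR adjusted p = 3.0e-04). The 3 lowest dermis values, 26.4, 108 and 1071 CPM, belonged to the 3 small animals, which were all orange, and the purple animal had the highest, 46484 CPM. Tube feet of the small animals, 17.1 and 25.3 CPM, were also the lowest of 12, against 265 to 3851 CPM in the others. In the symptomatic animals, dermis held 12.5 CPM in the orange medium and 3745 CPM in the brown large one. The test by size did not pass for g669 (-3.41 ± 0.92, edgeR adjusted p = 0.105), and its call by colour was lost without the animal block (edgeR adjusted p = 0.546).

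**Figure D5:**
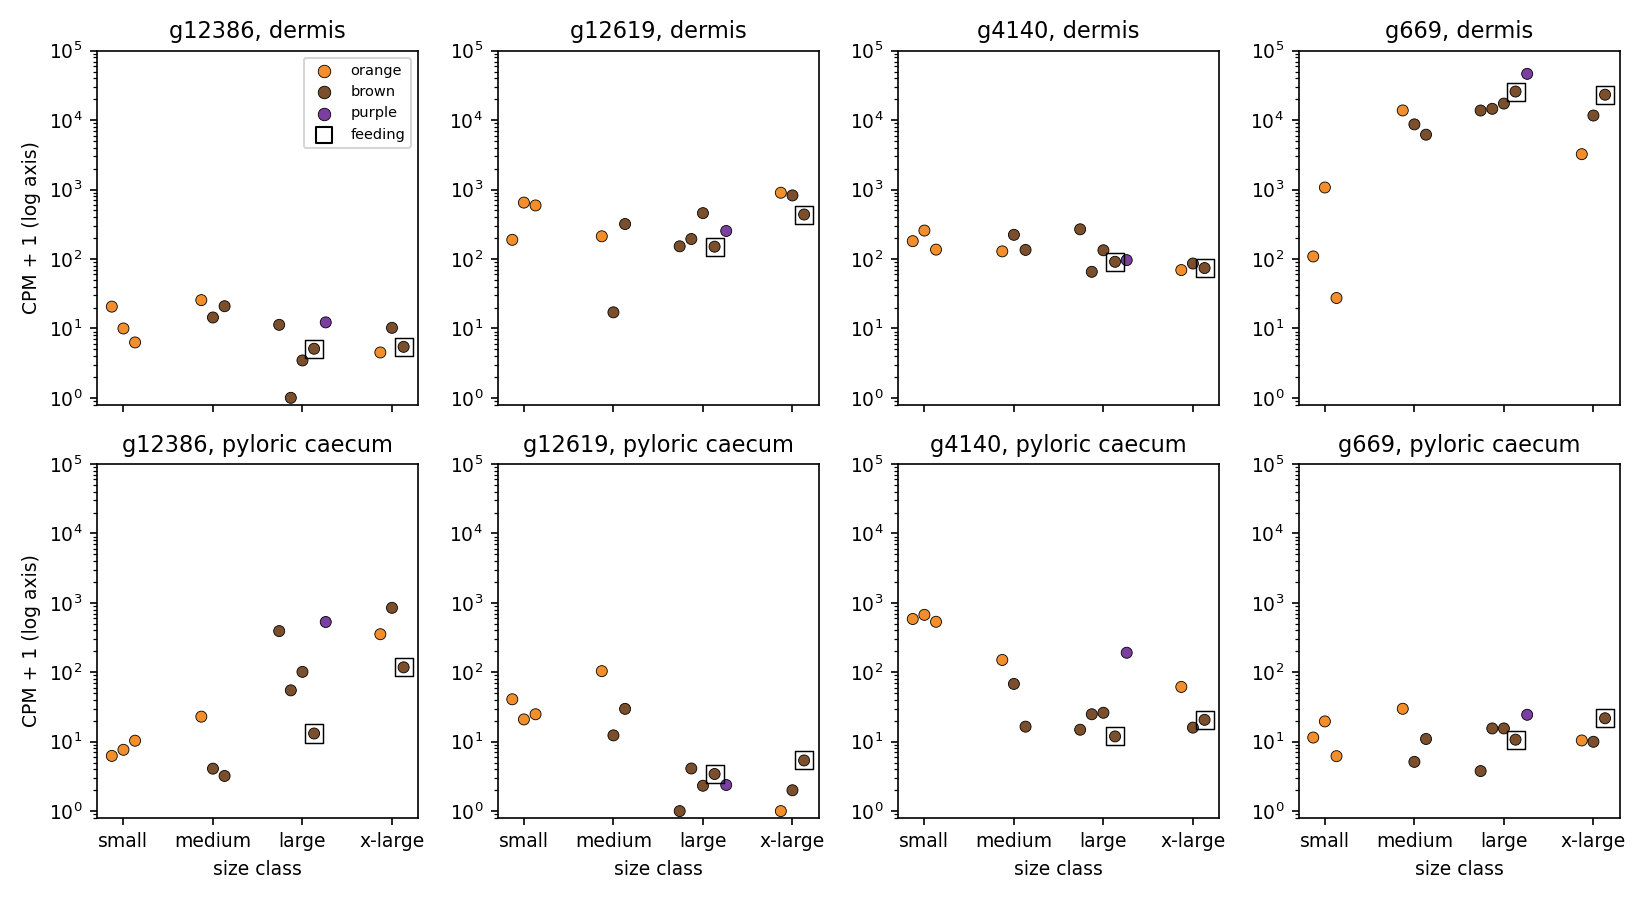
CPM + 1 (log axis) of 4 genes whose tissue difference passed by size (g12386, g12619) or colour (g4140, g669), in dermis (top) and pyloric caecum (bottom) of the 14 animals by size class, with points coloured by the animal's colour and squares around the feeding animals. In the lower row g12386 is high and g12619 low in large and x-large animals, and in the upper row g669 is lowest in the 3 small animals.

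By feeding, 2 of 14487 genes (0.0138%) passed between the 2 feeding and 12 other animals, g6109 and g3547, both with a higher ratio of pyloric caecum to dermis in feeding animals. Both feeding animals were brown and large or x-large, so feeding cannot be fully told apart from colour and size. In pyloric caecum g6109 held 19.7 and 355 CPM in the feeding animals and 2.07 to 13.95 CPM in the others (interaction 9.05 ± 1.63, edgeR adjusted p = 0.00966). Feeding dermis had no read of it, and dermis of the others held 0 to 12.3 CPM. Outside the fit, the asymptomatic x-large animal M0D055230R, not feeding, held 15.1 CPM in pyloric caecum. The 2 symptomatic animals, also not feeding, held 6.41 and 3.62 CPM there. The gene g3547 held 4.37 and 420 CPM in feeding pyloric caecum against 0 to 7.92 CPM in the others. Thus 1 feeding animal lay within the range of the others (9.62 ± 1.76, edgeR adjusted p = 0.00966). Feeding dermis had no read of g3547 either, and dermis of the others held 0 to 7.70 CPM. With no read in feeding dermis, the counts set no upper limit to either ratio. The high pyloric caecum values of both genes came from M0D055232T. Without that animal the interactions were 5.45 and 3.69 with an adjusted p of 1 in edgeR for each, so the size of both rests on 1 library. That fit has 1 feeding animal, which is assumed to vary like the others.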

How the data were processed

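RNA of dermis, pyloric caecum and tube feet was sequenced from Pisaster ochraceus. The authors deposited 1 table of raw read counts per library, with 21777 gene IDs and 5 summary lines, which were left out. The line for reads in no gene held 85.3% ± 2.24 of all counts in dermis libraries and 75.0% ± 2.92 in pyloric caecum (SD, n = 14). Per the submitters' processing notes, Trim Galore 0.4.4, TopHat2 2.0.13, SAMtools 0.1.19 and edgeR were used. Which program counted the reads, by which strand rule and against which genome and annotation, is not stated in the labels. Genes that averaged 1 CPM or more in the 28 libraries were tested with edgeR 4.0.16 (R 4.3.3; TMM scaling, quasi-likelihood F-test, Benjamini-Hochberg FDR under 0.01), with animal as a block. Size, feeding and colour entered as interactions with tissue. The SE of a log2 fold change or interaction was its size divided by the square root of the F statistic. The pairing comes from the labels, which give the libraries of an animal 1 identifier. Deviations from the tissue means correlated within animals at -0.00984 to 0.182 (median 0.0981) across genes, and at a median of -0.00892 between animals. Library measures were compared by exact permutation over animals after thinning to 373930 reads. Alternatives included DESeq2 1.42.0 and limma 3.58.1, and the test was checked on simulated data. TMM-scaled CPM, for counts of animals in a direction, was added after seeing the data. Named genes were the 2 most abundant in each direction among genes called and of 1 direction in CPM in 14 of 14 animals, the most abundant gene not called with a log2 fold change under 0.5 in size, and the gene of smallest p in each direction of each interaction with at least 10 CPM in a tissue. The genes g669 (by colour) and g3547 were named after their values were seen. The animals, lists and rules were chosen with earlier results of these data known. Intervals cover only the spread between animals. The other 5 tube feet libraries were not used.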

Additional observations from a re-analysis of the deposited data

Results flagged for a closer look

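The difference between the tissues depended on size for 19 genes, on feeding for 2 and on colour for 5, by the interaction in the paired edgeR fit. By size, the difference of differences was 6.5194 (log2) for g12386 and -4.9699 for g12619. By feeding it was 9.0513 for g6109 and 9.6228 for g3547, both of which rest on the animal M0D055232T. By colour it was 4.2305 for g4140 and 5.0461 for g669.

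Single animals also stood apart within 4 of 16 groups looked at, each with the highest CPM of its group. For normally distributed values, chance flags about 1 in 20 independent groups. Here the values were CPM without a log, and the genes were picked by interactions in the same animals. That rate may therefore not hold. The medium orange animal M0D055222J gave 3 of the 4. Among small and medium animals its pyloric caecum had the highest g12386, 21.934 CPM with 9.33 CPM next, and the highest g12619, 102.82 CPM with 39.8 CPM next. Its dermis had the highest g669 among orange animals, 13809 CPM with 3235 CPM next. Among brown animals, the pyloric caecum of M0D055223K had the highest g4140, 66.937 CPM with 25.1 CPM next. The cause was not tested.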

How the results depend on the processing

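The count of 5069 genes between the tissues stayed within 1.5 times under 29 of 31 alternatives, and was 2427 with edgeR's own expression filter (4617 genes tested) and 2859 with a minimum fold of 2. It was 4764 to 4967 with single animals left out, 3992 with batch as a covariate, 4850 in DESeq2, 5404 in limma-voom, and 3531 and 3475 in same-batch and different-batch animals. Without the replicate block, which pairs the libraries of an animal, it was 5144. Calls of g5054, g20128 and g669 were kept in all 31 alternatives and that of g13155 in the 30 that hold it. The interactions were less stable. By size the count was 6 without the replicate block, 8 with batch, 32 in animals not feeding, 51 for small against x-large and 12 to 30 with single animals left out. By feeding it was 0 in edgeR without the replicate block (536 at unadjusted p under 0.05), 11 with batch, 0 in DESeq2 (403 at unadjusted p under 0.05), 11 in large and x-large animals and 0 to 10 with single animals left out. It was 0 in edgeR without M0D055221I, M0D055231S or M0D055232T (540, 571 and 418 at unadjusted p under 0.05). By colour it was 1 without the replicate block, 9 with batch, 3 in small and medium animals and 4 to 11 with single animals left out. With g13155 left out, the differences in the shares of the 1, 10 and 100 most abundant genes were 0.337, 4.203 and 1.55 percentage points and that in the effective number -202. In same-batch animals the last 3 were 14.7, 5.14 and -420. The difference in genes with a read ran from -1058 to -625 with single animals left out, and passed 0.05 (exact permutation, lowest adjusted p = 0.0259) without M0D055222J, M0D055224L or M0D055226N. The cause was not tested where fewer genes or animals do not show it. Among the named genes and library measures, no called direction reversed in the alternatives run, and the difference in genes with a read, which was not called, was 538 at own depth. For the other genes only counts were compared.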

Other observations

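Genes abundant in pyloric caecum and called higher there were read at a low level in dermis. The genes below were chosen as called on the same libraries, which favours a low level in the other tissue. Of 59 genes called higher with at least 1000 CPM in pyloric caecum, the level in dermis had a median of 0.802% of that in pyloric caecum, a lowest value of 0.361% and 1 gene under 0.4%. In tube feet the median was 0.319% and 34 genes were under 0.4%. In the other direction, of 79 genes called lower with at least 1000 CPM in dermis, the level in pyloric caecum had a median of 22.2% and a lowest value of 0.0823%, with 19 genes under 0.4%. The 20 most abundant genes called higher took 0.902% to 3.40% of the dermis reads (median 2.44%), 0.977% to 2.80% of the tube feet reads and 29.1% to 57.7% of the pyloric caecum reads. Their median share of dermis reads was 2.18% where the libraries of an animal shared a batch and 2.70% where they did not. Whether carry-over between samples or expression in dermis gives these reads was not tested.

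Called genes lay near each other in the numbering of the IDs. Of 1960 genes called higher whose next-numbered gene was tested, 630 (32.1%) had a neighbour called higher, against 17.5% of all genes tested, and 12.6% had one called lower. For genes called lower it was 624 of 1899 (32.9%), with 14.1% in the opposite direction. What the numbering stands for is not stated in the labels or files.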
